A study of Mus musculus with 18 samples.

Results

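The probe sets of 9 glutamate receptor genes were followed through poly(A) tail fractionation of mouse forebrain RNA: the AMPA receptor subunits Gria1, Gria2, Gria3 and Gria4, the NMDA receptor subunits Grin1, Grin2a and Grin2b, and the metabotropic receptors Grm3 and Grm5. The members were all probe sets that carry only 1 of these gene symbols, which gave 16 of the 28898 probe sets with 1 symbol and covered 8 of the 9 genes, of 17097 genes measured. Grin1 is named only. Of the 16 probe sets, 15 passed a filter that left out the lowest 25% of probe sets by mean over all arrays, and were tested among 21673. The remaining one, Gria4 1440891_PM_at, averaged 4.23 on the log2 scale, below the filter at 5.35. Of 23 nonspecific control probe sets the brightest averaged 5.61.

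Cortex and striatum were dissected together from mice aged 6 weeks. There were 2 CPEB4 KO, 2 CPEB4 GT/+ and 2 WT animals, and the series' design text writes the middle genotype as CPEB4 KOGT/+. RNA held on poly(U) agarose came off in 2 steps, so that each animal gave an ELUTED array (rich in long tails), a WASH array (rich in short tails) and an INPUT array of its total RNA, 18 arrays in all. The labels name no strain, sex or Cre driver, and all groups share the same age and tissue.

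AMPA receptors carry the fast part of excitatory transmission in the brain, and their Gria2 subunit sets how much calcium they pass. NMDA receptors need glutamate and depolarisation together to open, and pair Grin1 with Grin2 subunits, of which Grin2b prevails early in forebrain development and Grin2a joins it as circuits mature. Grm3 and Grm5 act through G proteins, Grm3 on neurons and astrocytes and Grm5 mainly behind the synapse. CPEB4 is an RNA-binding protein that recognises elements in the 3′ untranslated regions of mRNAs and acts on the length of their poly(A) tails.

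One array stood apart. The INPUT array of CPEB4 KO animal 1 had 149 probe sets at least 2 log2 units above every other array, and the other 17 arrays had 0 such probe sets. Among them were the liver genes Alb at 12.08, against 5.86 to 6.86 on the other arrays, Apoa1 at 11.0 (6.52 to 6.96) and Serpina1a at 11.3 (3.86 to 3.97). The fourth liver gene listed, Ttr, which the choroid plexus also makes, stood at 11.4, inside the 7.43 to 11.8 of the other arrays. The ELUTED and WASH arrays of the same animal had Alb at 6.53 and 6.16, inside the 5.86 to 6.86 of the other animals. All 15 receptor probe sets were lower on that INPUT array than on the INPUT array of CPEB4 KO animal 2, by a median of 0.13 log2 units, and the median difference over all 21673 probe sets was -0.06. Results that use INPUT are therefore given with and without this animal or array, and the part of that signal in them was not tested.

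The markers of the labelled tissue were present. Above the filter lay 7 of 8 listed for cortical excitatory neurons, 7 of 9 for striatal projection neurons, 6 of 6 for GABA interneurons and 7 of 7 for astrocytes. The targeted gene stepped down with genotype. Cpeb4, at probe set 1449931_PM_at, stood at 6.55 and 6.92 in INPUT of CPEB4 KO animals, at 7.38 and 7.13 in CPEB4 GT/+ animals and at 8.30 and 8.33 in WT animals, with no overlap between genotypes. Its difference between CPEB4 KO and WT was -1.58 (SE 0.14, adjusted p = 0.0255, limma), and -1.40 (adjusted p = 0.0145) without CPEB4 KO animal 1. The other probe sets, at -0.96 and -1.12, missed the threshold (adjusted p = 0.0639 and 0.205). The call of 1449931_PM_at was lost when CPEB4 GT/+ animal 1 or 2 (adjusted p = 0.135 each), WT animal 1 (0.266) or WT animal 2 (0.220) was left out, with the replicate number as a block (0.116) and with no filter on low values (0.0931), at differences of -1.59 to -1.57.

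The first question was how each receptor mRNA divided between the long-tail and the short-tail fraction. The answer differed by subunit and, for AMPA receptor genes, by probe set. All 3 Grin2b probe sets and the one of Grin2a were higher in ELUTED than in WASH, 1 Gria2 probe set was higher and another lower, and Grm3 and Grm5 did not pass the test. Over the 3 genotypes, 7 of 15 receptor probe sets were called higher and 4 lower (adjusted p under 0.05, limma), while 26.6% of all probe sets were called higher and 46.4% lower (72.9% called in all). In 7 of the 15 all 6 animals lay above 0 and in 4 all lay below 0, as did 25% and 45.4% of all probe sets. The median ELUTED over WASH difference was -0.04 for the receptors and -0.15 for all probe sets, and 10 of the 15 receptor values lay above the median of all. All values are log2 differences between arrays normalised to each other, so they are relative to the other genes and not absolute tail lengths.

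**Figure D1:**
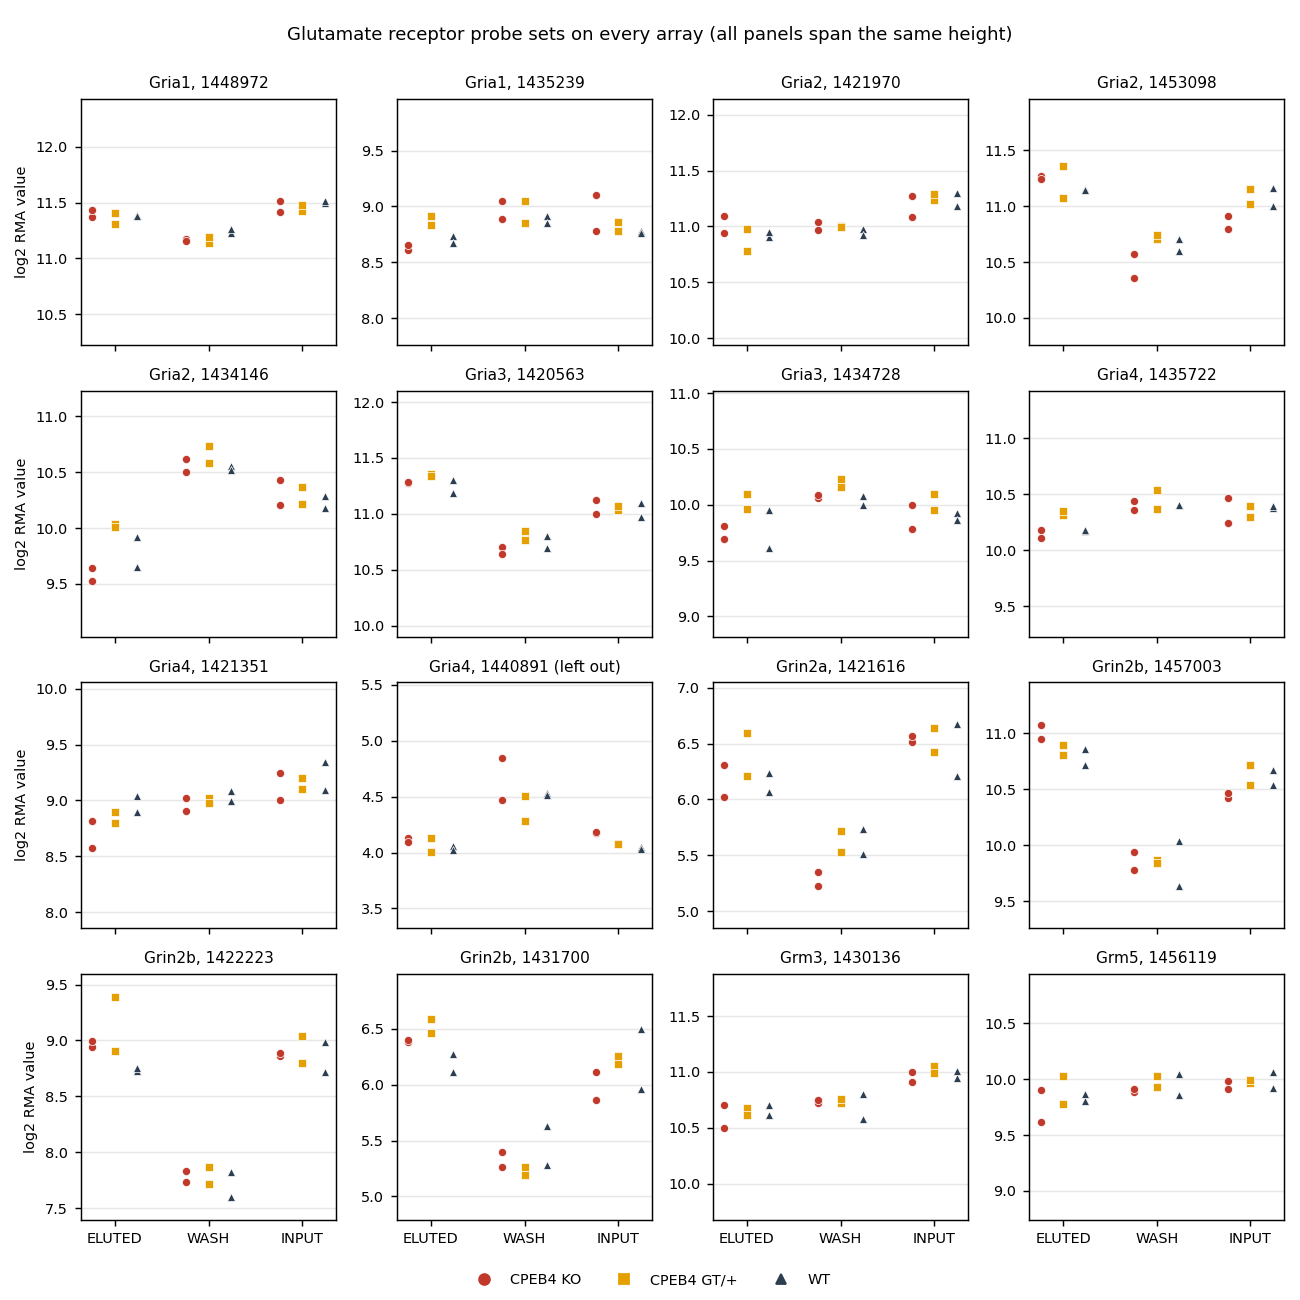
Log2 RMA value (y axis, the same span in each panel) of the 16 receptor probe sets by fraction (x axis: ELUTED, WASH, INPUT), with 1 point per array, for CPEB4 KO (red circles), CPEB4 GT/+ (orange squares) and WT (dark triangles). Grin2b and Grin2a probe sets drop in WASH, Gria2 1434146_PM_at drops in ELUTED, and genotypes lie close together within a fraction.

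Grin2b, the subunit that gives NMDA receptors slow decay and a long carboxyl tail, had the highest ratios of the list. At 1422223_PM_at it stood at 8.94 and 9.0 in ELUTED of CPEB4 KO, 8.91 and 9.39 of CPEB4 GT/+ and 8.73 and 8.75 of WT animals. In WASH the values were 7.83 and 7.73 in CPEB4 KO, 7.71 and 7.87 in CPEB4 GT/+ and 7.60 and 7.82 in WT animals. Every ELUTED array was thus above every WASH array. The mean ELUTED over WASH difference was 1.19 ± 0.20 (SD over 6 animals; SE 0.08), a 2.28-fold ratio, with adjusted p = 2.42e-05 (limma). The other Grin2b probe sets gave 1.03 ± 0.15 (1457003_PM_at) and 1.03 ± 0.27 (1431700_PM_at), each above 0 in 6 of 6 animals. All 3 lay at or above the 99.0th percentile of the 21673 probe sets, and at 99.2% to 99.7% among probe sets within 0.5 log2 units of their own level.

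Grin2a, the subunit of faster NMDA receptors, came next at its only probe set, 1421616_PM_at. In ELUTED it stood at 6.02 and 6.31 in CPEB4 KO, 6.21 and 6.59 in CPEB4 GT/+ and 6.06 and 6.23 in WT animals. In WASH it stood at 5.22 and 5.35, at 5.72 and 5.53, and at 5.51 and 5.74 in the same order of genotypes. The fractions did not overlap, with a mean difference of 0.73 ± 0.25 (SD, n = 6; adjusted p = 0.000161, limma). WASH values of Grin2a and of Grin2b 1431700_PM_at (5.19 to 5.63) lie around the highest mean of the nonspecific controls, 5.61, so the low end of these ratios rests on values near background.

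Gria2, the calcium-limiting AMPA receptor subunit, split by probe set. At 1453098_PM_at the ELUTED arrays held 11.27 and 11.24 in CPEB4 KO, 11.08 and 11.36 in CPEB4 GT/+ and 11.16 and 11.15 in WT animals, while the WASH arrays held 10.57 and 10.36, 10.71 and 10.74, and 10.71 and 10.60 in the same order of genotypes. ELUTED was higher in 6 of 6 animals, by 0.59 ± 0.18 (SD, n = 6; adjusted p = 0.000176, limma). At 1434146_PM_at the order of the fractions was turned round. There ELUTED arrays held 9.64 and 9.52 in CPEB4 KO, 10.04 and 10.01 in CPEB4 GT/+ and 9.65 and 9.92 in WT animals, and WASH arrays 10.50 and 10.62, 10.58 and 10.73, and 10.56 and 10.52. ELUTED was lower in 6 of 6 animals, by -0.79 ± 0.21 (adjusted p = 7.19e-05), with no overlap. The third probe set, 1421970_PM_a_at, which has the highest mean of the gene, gave -0.04 ± 0.09 (adjusted p = 0.582).

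Gria3, whose subunit pairs with Gria2 in many forebrain AMPA receptors, showed the same kind of split. Its probe set 1420563_PM_at ran from 11.19 to 11.36 on the ELUTED arrays and from 10.64 to 10.85 on the WASH arrays, with a difference of 0.55 ± 0.06 (SD, n = 6; adjusted p = 0.000166, limma). Its other probe set, 1434728_PM_at, gave -0.25 ± 0.17 (adjusted p = 0.0256). Gria1, the subunit that is recruited to synapses in potentiation, gave 0.19 ± 0.06 at 1448972_PM_at (adjusted p = 0.0316), higher in 6 of 6 animals, and -0.20 ± 0.15 at 1435239_PM_at (adjusted p = 0.0396), lower in 5 of 6. The calls of these last 3 probe sets were lost in 3 to 5 of 6 repeats that left out 1 animal: Gria3 1434728_PM_at without CPEB4 KO animal 1 or 2 or WT animal 1 (-0.27 to -0.18), Gria1 1448972_PM_at without either CPEB4 KO or either WT animal (0.18 to 0.21), and Gria1 1435239_PM_at without any animal but CPEB4 GT/+ animal 1 (-0.21 to -0.15).

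Gria4, an AMPA receptor subunit of fast kinetics, gave -0.20 ± 0.09 at 1435722_PM_at (adjusted p = 0.0299) and -0.16 ± 0.14 at 1421351_PM_at (adjusted p = 0.0815), both below 0 in 6 of 6 animals; the call was lost without either CPEB4 KO or either WT animal (-0.22 to -0.17). The metabotropic receptors had ELUTED over WASH differences of -0.09 ± 0.09 for Grm3 and -0.11 ± 0.11 for Grm5 (SD, n = 6; adjusted p = 0.301 and 0.213, limma), each below 0 in 5 of 6 animals. These 95% intervals ran from -0.25 to 0.08 and from -0.28 to 0.06. Both genes, and both kept Gria4 probe sets, lay near the middle of all 21673 probe sets, between percentiles 46.3 and 53.9. That position depends on the level of the probe sets compared. With the lowest 50% by mean left out, the median of all was -0.28, and 12 of 13 receptor probe sets lay above it, these included.

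**Figure D2:**
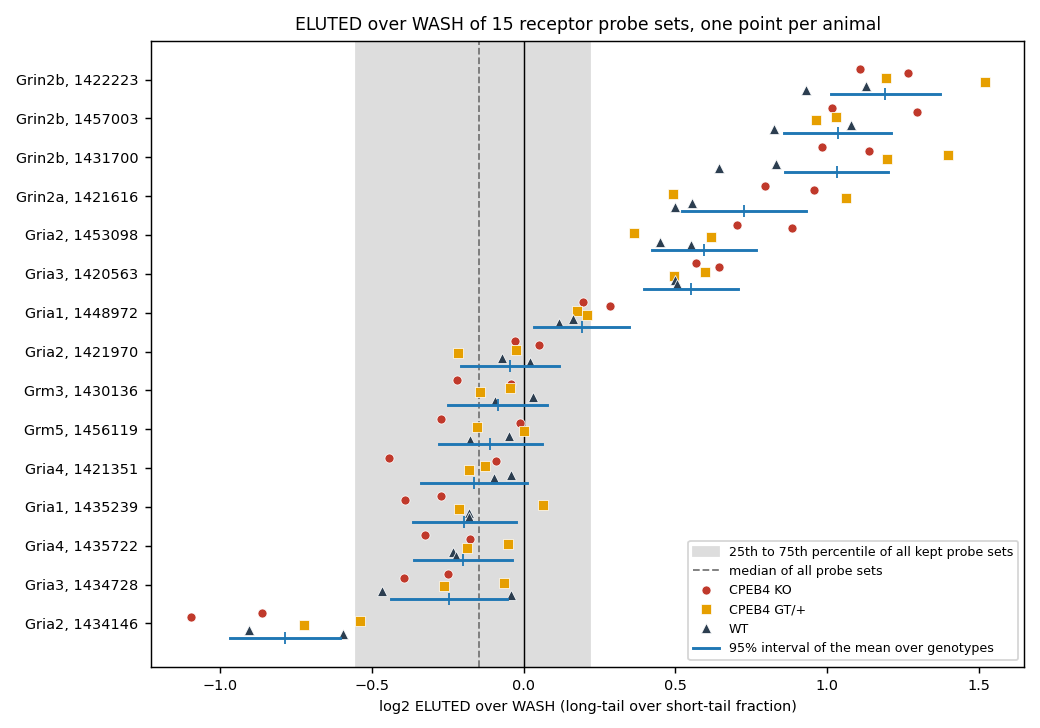
Log2 ELUTED over WASH (x axis) of the 15 kept receptor probe sets (y axis, in order of their mean), with 1 point per animal (CPEB4 KO, CPEB4 GT/+, WT) and the 95% interval of the mean over genotypes as a blue line. The grey band runs from the 25th to the 75th percentile of all 21673 probe sets, -0.55 to 0.22; the Grin2b points all lie to its right and those of Gria2 1434146_PM_at at its left edge or beyond.

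Ordered by mean ratio, neighbouring probe sets differed by more than the SD over animals in 4 of 14 steps. One of these, Grin2b 1431700_PM_at over Grin2a by 0.30 (SD over animals 0.30), sets against each other 2 ratios whose WASH values lie near background, and is not read as a separation. In the other 3, with 6 of 6 animals on the same side, Gria3 1420563_PM_at exceeded Gria1 1448972_PM_at by 0.36 (SD 0.05), Gria1 1448972_PM_at exceeded Gria2 1421970_PM_a_at by 0.24 (SD 0.11), and Gria3 1434728_PM_at exceeded Gria2 1434146_PM_at by 0.54 (SD 0.10). The other neighbours in that order differed by less than 1 SD. These 3 steps leave the NMDA receptor probe sets with Gria2 1453098_PM_at and Gria3 1420563_PM_at at the top, Gria1 1448972_PM_at alone below them, then 7 probe sets from -0.25 to -0.04, and Gria2 1434146_PM_at alone at the bottom. Only neighbours were compared, so members of a group can still differ. In the top group, the animals ran from 0.93 to 1.52 at Grin2b 1422223_PM_at and from 0.83 to 1.29 at Grin2b 1457003_PM_at. They ran from 0.64 to 1.40 at Grin2b 1431700_PM_at and from 0.49 to 1.06 at Grin2a. Those of Gria2 1453098_PM_at ran from 0.36 to 0.88 and those of Gria3 1420563_PM_at from 0.50 to 0.64.

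The 0 of these ratios depends on how arrays are put on 1 scale, and 6 scalings were compared. The 3 Grin2b probe sets were called higher and Gria2 1434146_PM_at called lower in 6 of 6. Grin2a, Gria2 1453098_PM_at and Gria3 1420563_PM_at were above 0 in 6 of 6 and called in 5, the exception being arrays aligned on the hybridisation controls, where they stood at 0.24, 0.10 and 0.06. Directions of Gria1, Gria4, Grm3, Grm5, Gria2 1421970_PM_a_at and Gria3 1434728_PM_at changed sign with the scaling: Gria1 1448972_PM_at ran from -0.30 to 0.62 and Grm3 from -0.58 to 0.28. Grm3 was called in 4 of the 6 scalings, in both directions. It was lower centred on array medians (-0.20) and aligned (-0.58), and higher with a common median and MAD (0.28) and centred on kept probe sets (0.20). Measured from the median of all probe sets in each scaling, Grin2b 1422223_PM_at held 1.34 to 1.5 and Gria2 1434146_PM_at -0.64 to -0.37.

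**Figure D3:**
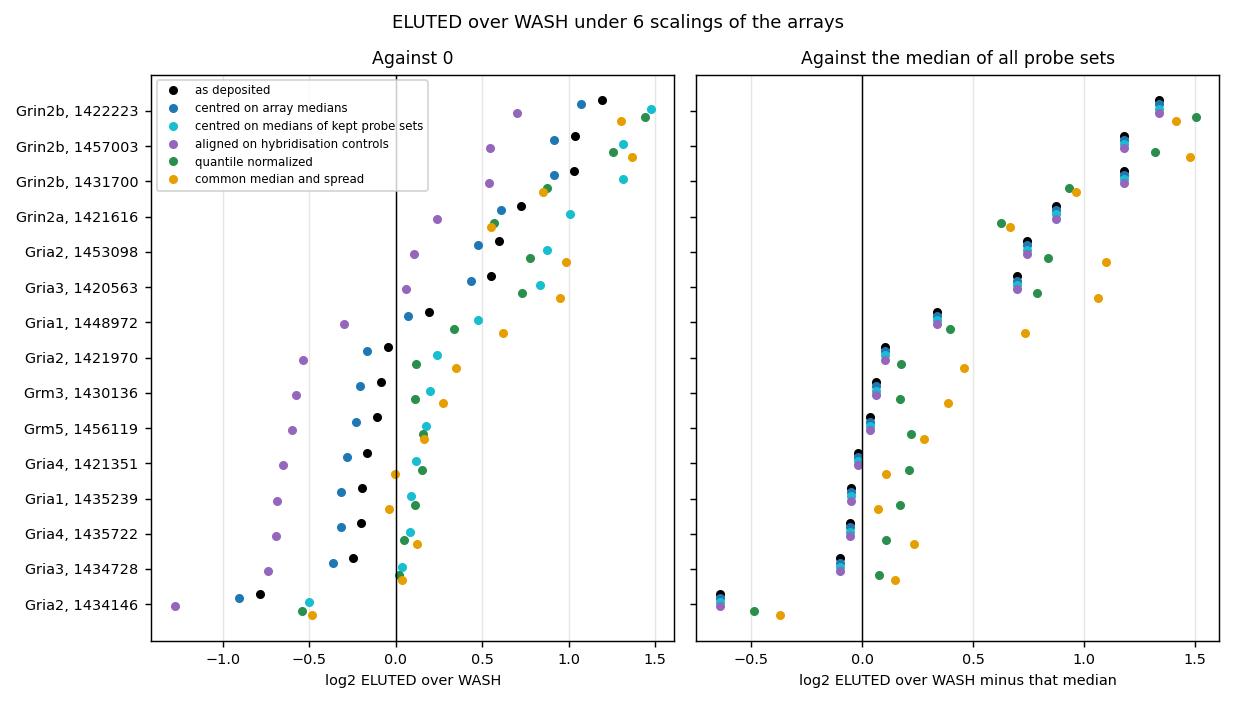
Mean log2 ELUTED over WASH (x axes) of the 15 receptor probe sets (y axis) under 6 scalings of the arrays (colours), against 0 on the left and against the median of all probe sets on the right. In the left panel, aligning on hybridisation controls moves all points left, and the 3 Grin2b probe sets stay right of 0 in every scaling.

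Differences between probe sets of 1 gene do not depend on that 0 point where arrays are shifted as a whole. Each further probe set was set against the one with the highest mean of its gene in every animal, over 8348 such pairs, of which 63.2% were called (32.9% higher and 30.3% lower). Of 7 receptor pairs, 4 were called, 1 higher and 3 lower. Gria2 1434146_PM_at stood -0.74 (SE 0.08, adjusted p = 0.000238, limma) and Gria2 1453098_PM_at 0.64 (SE 0.08, adjusted p = 0.000514) from Gria2 1421970_PM_a_at. Gria3 1434728_PM_at stood -0.80 (SE 0.09, adjusted p = 0.000233) from Gria3 1420563_PM_at, and the Gria1 pair differed by -0.39 (SE 0.08, adjusted p = 0.00414). Each of these had 6 of 6 animals on its side. The sizes for Gria2 and Gria3 exceeded those of 75.7% to 83.7% of all pairs, whose median size was 0.34, so splits of this kind were common on these arrays. As deposited, the 3 Grin2b probe sets stayed together, at 0.16 (adjusted p = 0.131) and -0.00292 (adjusted p = 0.974), as did those of Gria4, at 0.04 (adjusted p = 0.688). For Grin2b this depended on the scaling. ELUTED over WASH of 1431700_PM_at and 1457003_PM_at was 0.87 and 1.26 under quantile normalization, where 1431700_PM_at was called lower. It was 0.85 and 1.36 with a common median and MAD. Where in the transcripts these probe sets lie was not used here.

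The second question was which fraction departed from unfractionated RNA. All 4 NMDA receptor probe sets lay further from INPUT in WASH than in ELUTED. WASH over INPUT was -1.12 ± 0.14 (SD, n = 6) for Grin2b 1422223_PM_at, -0.81 ± 0.21 for 1431700_PM_at, -0.71 ± 0.16 for 1457003_PM_at and -0.99 ± 0.22 for Grin2a, each below 0 in 6 of 6 animals, with adjusted p up to 3.10e-05 (limma). Without CPEB4 KO animal 1 these were -1.14, -0.87, -0.74 and -0.98, and adjusted p was up to 4.49e-05. In all, 10 of 15 receptor probe sets were called lower and 2 higher in WASH than in INPUT, against 21.5% lower and 42.6% higher of all probe sets (64.1% called). Without that animal 10 were lower and 1 higher (19.6% and 39.7% of all), since Gria3 1434728_PM_at (0.16, adjusted p = 0.0216) then stood at 0.13 (adjusted p = 0.0945). Its call was also lost without CPEB4 GT/+ animal 1 or either WT animal (0.15 to 0.17).

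The remaining calls in WASH were smaller. Gria2 1453098_PM_at (-0.39), Gria3 1420563_PM_at (-0.31), Gria1 1448972_PM_at (-0.28), Grm3 (-0.26), Gria2 1421970_PM_a_at (-0.24) and Gria4 1421351_PM_at (-0.16) were lower than in INPUT. Without CPEB4 KO animal 1 they stood, in the same order, at -0.45, -0.34, -0.30, -0.27, -0.26 and -0.22, all still called. Gria2 1434146_PM_at was higher, at 0.30 ± 0.07 in 6 of 6 animals (adjusted p = 0.000737, limma), and at 0.29 (adjusted p = 0.00338) without that animal. With arrays aligned on the hybridisation controls, Gria4 1421351_PM_at, Gria2 1421970_PM_a_at and Grm3 turned to 0.11, 0.03 and 0.01. The call of Gria4 1421351_PM_at held only without CPEB4 KO animal 1 (-0.22) among the repeats that left out 1 animal, with -0.19 to -0.10 without the others.

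Fewer receptor probe sets were called between ELUTED and INPUT. There 4 receptor probe sets were called higher and 5 lower, against 15.8% and 28.9% of all probe sets (44.7% called). Higher were Grin2b 1457003_PM_at (0.33 ± 0.21, SD, n = 6), Gria3 1420563_PM_at (0.24 ± 0.06), Grin2b 1431700_PM_at (0.22 ± 0.25) and Gria2 1453098_PM_at (0.20 ± 0.18). Lower were Gria2 1434146_PM_at (-0.48 ± 0.27), Grm3 (-0.35 ± 0.05), Gria4 1421351_PM_at (-0.33 ± 0.09), Gria2 1421970_PM_a_at (-0.29 ± 0.14) and Grin2a (-0.27 ± 0.25). Without CPEB4 KO animal 1, 1 was called higher and 4 lower (10.9% and 25.4% of all). Then only Grin2b 1457003_PM_at kept its call among the higher ones (0.34, adjusted p = 0.0213, limma), and Grin2a lost its call among the lower ones (-0.23, adjusted p = 0.153). The lower ones that stayed called were Gria2 1434146_PM_at (-0.54), Grm3 (-0.33), Gria4 1421351_PM_at (-0.33) and Gria2 1421970_PM_a_at (-0.29). The values without a call were then 0.22 for Gria3 1420563_PM_at (adjusted p = 0.0704), 0.19 for Grin2b 1431700_PM_at (adjusted p = 0.156) and 0.18 for Gria2 1453098_PM_at (adjusted p = 0.146). Over the repeats that left out any 1 animal, 1 to 3 were higher and 3 to 5 lower: only Grin2b 1457003_PM_at kept its call among the higher ones in all 6, Gria2 1421970_PM_a_at lost its call without WT animal 1 (-0.26, adjusted p = 0.0742), and Grin2a lost its own in all but that without CPEB4 GT/+ animal 2.

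Some receptor probe sets were lower in both fractions than in total RNA. Grin2a, Grm3, Gria4 1421351_PM_at and Gria2 1421970_PM_a_at, 4 of 15, were called lower in both, as were 2.73% of all probe sets. Another 4, namely Grin2b 1457003_PM_at, Grin2b 1431700_PM_at, Gria3 1420563_PM_at and Gria2 1453098_PM_at, were higher in ELUTED and lower in WASH (5.98% of all), and Gria2 1434146_PM_at alone was lower in ELUTED and higher in WASH (17.9% of all). Without CPEB4 KO animal 1, Grm3, Gria4 1421351_PM_at and Gria2 1421970_PM_a_at were called lower in both (2.06% of all), Grin2b 1457003_PM_at alone was higher in ELUTED and lower in WASH (3.94%), and Gria2 1434146_PM_at alone was lower in ELUTED and higher in WASH (15.1%). The 2 ratios share their INPUT arrays, and the classes rest on the calls whose changes without single animals are given above. They also depend on the scaling. Aligned on the hybridisation controls, WASH over INPUT was 0.11 for Gria4 1421351_PM_at, 0.03 for Gria2 1421970_PM_a_at and 0.01 for Grm3. In that scaling 0 receptor probe sets were called higher in ELUTED than in INPUT. The ELUTED over INPUT call of Gria2 1421970_PM_a_at held in 3 of 6 scalings.

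**Figure D4:**
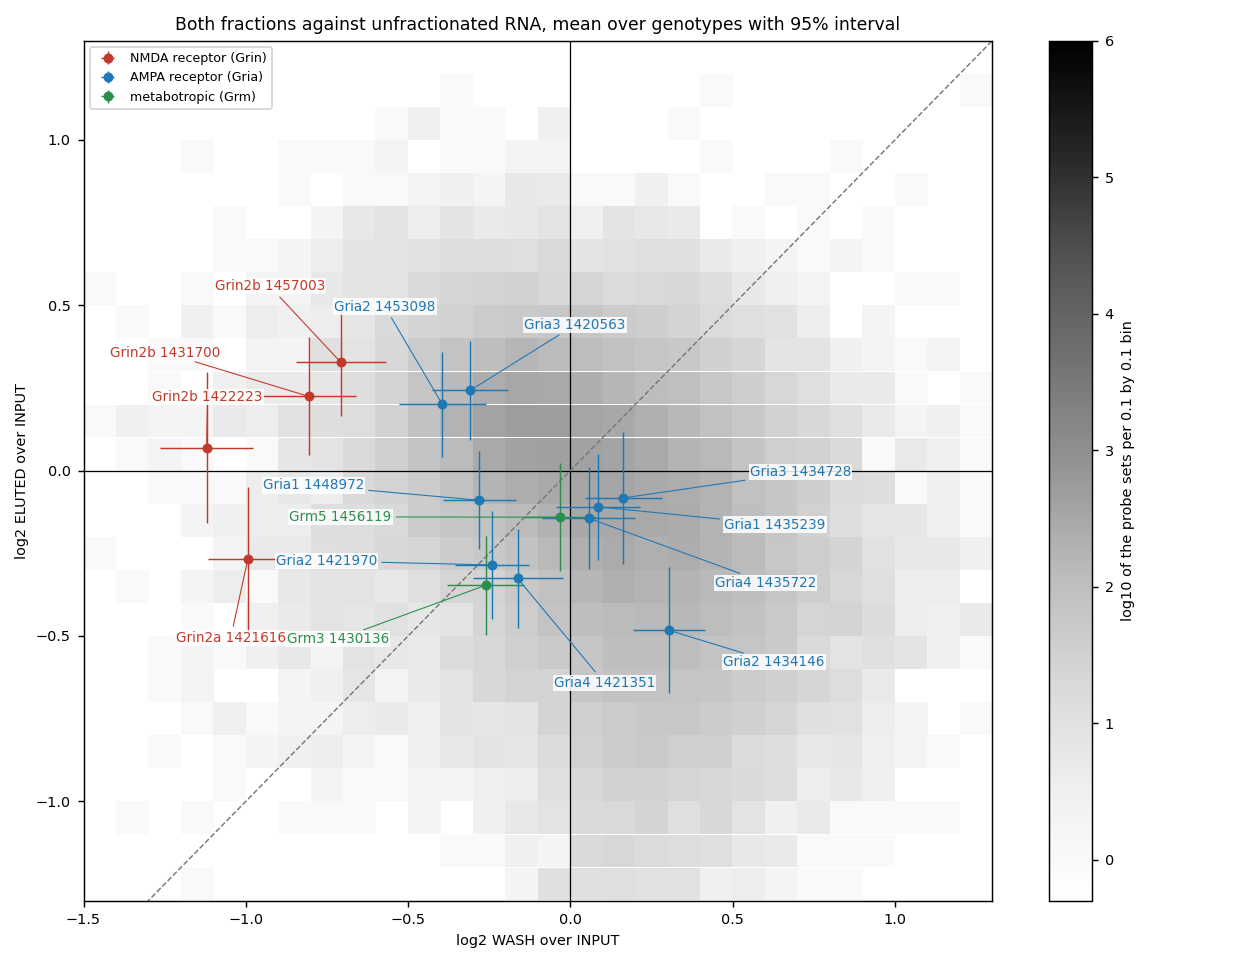
Log2 ELUTED over INPUT (y axis) against log2 WASH over INPUT (x axis) of the 15 receptor probe sets, as means over genotypes with 95% intervals, over all kept probe sets counted in bins (grey, log10 scale). Grin2b and Grin2a lie far to the left with WASH over INPUT between -1.12 and -0.71, and Gria2 1434146_PM_at lies in the lower right quadrant; on the dashed line both fractions are equal.

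One of 2 RNA quality controls moved with the fractions. The Actb control difference between 3′ and 5′ probe sets ran from -0.47 to -0.31 on ELUTED, from -0.21 to -0.06 on WASH and from -0.48 to -0.41 on INPUT arrays, with WASH above the others. That of Gapdh ran from -0.05 to 0.06 on ELUTED, from -0.13 to 0.02 on WASH and from -0.10 to -0.05 on INPUT arrays, where WASH overlapped both other fractions. The standard deviation over probe sets was 1.78 to 1.90 on ELUTED, 1.95 to 2.01 on WASH and 1.88 to 1.95 on INPUT arrays. Their part in the receptor ratios was not tested.

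The third question was whether loss of CPEB4 changed the receptor mRNAs, in level or in their division between fractions. No receptor probe set was called in any of the 6 genotype comparisons. In INPUT, CPEB4 KO minus WT ran from -0.25 (Grin2b 1431700_PM_at) to 0.17 (Gria1 1435239_PM_at), and CPEB4 GT/+ minus WT from -0.07 (Gria4 1421351_PM_at) to 0.13 (Gria3 1434728_PM_at). With 2 animals a genotype, the 95% interval of each of these 30 differences included 0. Their outermost limits were -0.65 and 0.46, which are not the error of every probe set, since the intervals differ in width. Without CPEB4 KO animal 1, CPEB4 KO minus WT ran from -0.18 (Gria2 1453098_PM_at) to 0.33 (Gria1 1435239_PM_at), and Grin2b 1431700_PM_at stood at -0.12. CPEB4 KO minus CPEB4 GT/+ ran from -0.24 (Gria2 1453098_PM_at) to 0.12 (Gria1 1435239_PM_at), and from -0.18 to 0.28 at the same probe sets without that animal. With 2 animals on each side, the smallest p of an exact permutation test is p = 0.333. The same comparisons called few of the 21673 probe sets with limma: 6 (0.0277%) for CPEB4 KO over WT, 0 (0%) for CPEB4 GT/+ over WT and 2 (0.00923%) for CPEB4 KO over CPEB4 GT/+, where 2380, 746 and 1736 had an unadjusted p under 0.05. Without CPEB4 KO animal 1, 14 (0.0646%) were called for CPEB4 KO over WT and 11 (0.0508%) for CPEB4 KO over CPEB4 GT/+, 0 of them receptors.

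The receptor with the lowest p in INPUT between CPEB4 KO and WT was Gria2 1453098_PM_at. It stood at 10.80 and 10.91 in CPEB4 KO, 11.02 and 11.16 in CPEB4 GT/+ and 11.16 and 11.01 in WT animals. Both CPEB4 KO values were below the other 4, with a difference from WT of -0.23 (SE 0.11, adjusted p = 0.480, limma) that was -0.18 without CPEB4 KO animal 1. The other Gria2 probe sets gave 0.08 and -0.06. Gria1 1435239_PM_at stood at 8.78 and 9.11 in CPEB4 KO against 8.78 and 8.76 in WT animals, a difference of 0.17 that was 0.33 without CPEB4 KO animal 1 (adjusted p = 0.630 and 0.277). Between CPEB4 KO and WT, 1 receptor probe set without overlap was higher (Gria1 1435239_PM_at) and 2 were lower (Gria2 1453098_PM_at and Grin2b 1457003_PM_at), where 42.5% of all probe sets did not overlap, 24.1% higher and 18.5% lower. For Gria1 1435239_PM_at this rests on 8.7835 on the INPUT array of CPEB4 KO animal 1 against 8.7827 in WT animal 1, which are nearly equal. CPEB4 GT/+ and WT did not overlap for 3 of 15 (2 higher and 1 lower; 32.7% of all, 17.9% and 14.8%), nor did CPEB4 KO and CPEB4 GT/+ for 3 of 15, all lower (37.7% of all, 21.9% higher and 15.8% lower). With CPEB4 KO animal 2 alone, 5 receptor probe sets lay above and 2 below both WT animals (48.9% and 27.5% of all), and 6 lay above and 3 below both CPEB4 GT/+ animals (47.5% and 25.1%). In bulk tissue, fewer cells of a type and less RNA per cell cannot be told apart.

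Mean marker levels of other cell types also differed between the genotypes, with no test made. The mean INPUT level of the microglia markers (6 of 6 with a probe set above the filter) was 8.81 to 8.87 in CPEB4 KO, 8.58 to 8.69 in CPEB4 GT/+ and 8.46 to 8.65 in WT animals, and that of the endothelial markers (5 of 5) was 8.04 to 8.20, 7.82 to 7.95 and 7.81 to 7.84 in the same order. Astrocyte markers (7 of 7) were at 10.06 to 10.16 in CPEB4 KO, 9.85 to 9.92 in CPEB4 GT/+ and 9.95 to 10.02 in WT animals. Oligodendrocyte precursor markers (3 of 5 above the filter) were at 7.74 to 7.78, 7.51 to 7.54 and 7.62 to 7.65 in the same order. Their mean was taken over the 4 with a probe set, which include Pdgfra, below the filter at a mean of 4.48. All 4 of these lists were higher in each CPEB4 KO animal than in any other animal. Without the INPUT array of CPEB4 KO animal 1 this rests on CPEB4 KO animal 2 alone. That animal stood at 8.81 (microglia), 8.04 (endothelial), 10.06 (astrocyte) and 7.78 (oligodendrocyte precursor). Oligodendrocyte markers (5 of 6) were at 10.25 to 10.29 in CPEB4 KO, 10.04 to 10.09 in CPEB4 GT/+ and 10.26 to 10.27 in WT animals. Cortical excitatory markers were at 9.43 to 9.60 in CPEB4 KO, 9.45 to 9.55 in CPEB4 GT/+ and 9.33 to 9.39 in WT animals. Striatal projection neuron markers were at 9.35 to 9.42, 9.26 to 9.49 and 9.19 to 9.31, and GABA interneuron markers at 10.12 to 10.21, 10.07 to 10.14 and 10.01 to 10.03 in the same order. These 3 neuron lists were higher in each CPEB4 KO than in each WT animal, and overlapped between CPEB4 KO and CPEB4 GT/+. In them CPEB4 KO animal 2 alone stood at 9.60, 9.42 and 10.21. Their part in the receptor values was not tested.

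The ELUTED over WASH ratios did not differ by genotype past the threshold either. CPEB4 KO minus WT ran from -0.23 (Gria2 1434146_PM_at) to 0.35 (Grin2a), and CPEB4 GT/+ minus WT from -0.10 (Gria2 1421970_PM_a_at) to 0.56 (Grin2b 1431700_PM_at). In all 3 ratio comparisons 0 of the 21673 probe sets were called with limma (0%), while 1377, 234 and 477 had an unadjusted p under 0.05 for CPEB4 KO over WT, CPEB4 GT/+ over WT and CPEB4 KO over CPEB4 GT/+. The widest receptor interval for CPEB4 KO minus WT, that of Grin2a, ran from -0.15 to 0.85.

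One receptor probe set had an unadjusted p under 0.05 in a genotype comparison. The ratio of Grin2b 1431700_PM_at was 0.98 and 1.14 in CPEB4 KO, 1.40 and 1.20 in CPEB4 GT/+ and 0.83 and 0.64 in WT animals. No genotype overlapped another there, with CPEB4 GT/+ highest and WT lowest. Its difference between CPEB4 GT/+ and WT was 0.56 (SE 0.18, 95% interval 0.14 to 0.98), with an adjusted p = 1.000 over all probe sets (limma). The other Grin2b probe sets gave 0.33 and 0.04. Ratios of CPEB4 KO and WT animals did not overlap for 6 of 15 receptor probe sets, 5 higher and 1 lower in CPEB4 KO, where 50.7% of all probe sets did not overlap (21.5% higher and 29.2% lower). The higher ones were Gria1 1448972_PM_at, Gria2 1453098_PM_at, Gria3 1420563_PM_at, Grin2a and Grin2b 1431700_PM_at, and the lower one was Gria1 1435239_PM_at. For CPEB4 GT/+ and WT it was 5 of 15, 4 higher and 1 lower, where it was 22.7% of all (12.4% higher and 10.4% lower). For CPEB4 KO and CPEB4 GT/+ it was 4 of 15, 1 higher and 3 lower, where it was 23.1% of all (10.9% higher and 12.2% lower).

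**Figure D5:**
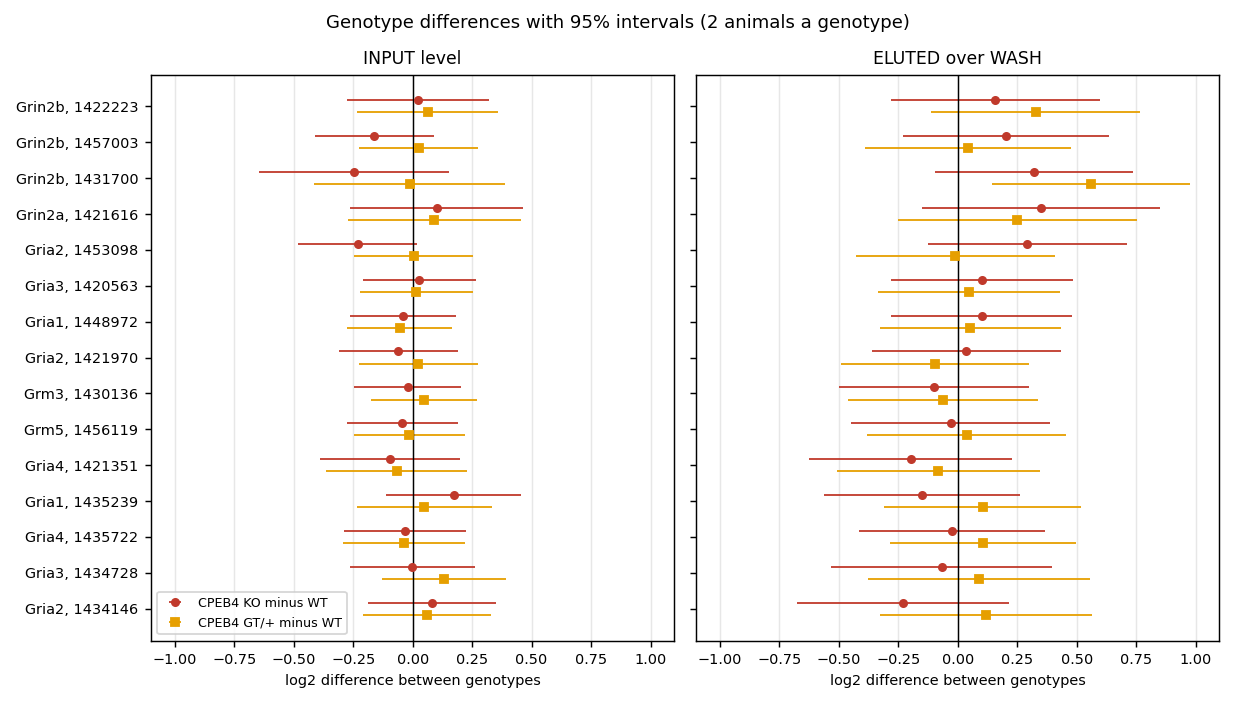
Log2 differences of CPEB4 KO minus WT (red) and CPEB4 GT/+ minus WT (orange) with 95% intervals (x axes), for the 15 receptor probe sets (y axis), in the INPUT level on the left and in ELUTED over WASH on the right. All intervals but that of Grin2b 1431700_PM_at (CPEB4 GT/+ minus WT, ratio) include 0.

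The genes that work with these receptors were set beside them, at 1 probe set per gene, from lists chosen with earlier results of these data known. In ELUTED over WASH, 4 of 10 other ionotropic subunits were called higher and 3 lower, with 25.9% higher and 47.4% lower among all 13325 genes tested. Of the kainate receptor subunits, Grik3 was higher (0.72) and Grik1 (-0.64) and Grik2 (-0.47) lower, and the delta receptor Grid1 was higher (0.48). Other probe sets of Grik3 and Grik1 went the opposite way, at -0.22 and 0.69. The remaining calls of that list, named after their values were seen, included the NMDA receptor subunits Grin3a and Grin3b. Grin3a was lower (-0.46, adjusted p = 0.000548, limma; 6 of 6 animals below 0), below 0 in 6 of 6 scalings and called in 4, and its other probe sets stood at -0.48 and -0.37. Grin3b (0.36, 5 of 6 animals above 0) and the kainate receptor subunit Grik4 (0.26, adjusted p = 0.0288, 6 of 6) were higher. Aligned on the hybridisation controls these turned to -0.14 and -0.23, and Grik4 kept its call only without CPEB4 GT/+ animal 1 among the repeats that left out 1 animal (0.16 to 0.35). Of 4 further metabotropic receptors 1 was higher, Grm4 at 0.44, and 2 were lower, Grm7 at -0.90 and Grm8 at -0.68.

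Auxiliary subunits, which set the gating and traffic of AMPA and kainate receptors, had 6 of 17 called higher and 6 lower. Beside this list and those below, 25.9% of all 13325 genes tested were higher and 47.4% lower. The AMPA receptor partners Cacng8 (0.87) and Cacng3 (0.49) were higher, and Gsg1l (-0.42) and the kainate receptor partner Neto2 (-0.42) were lower. Scaffold and trafficking genes had 8 of 22 higher and 8 lower. The postsynaptic scaffolds Shank1 (0.88) and Dlgap1 (0.75) were higher, and the adhesion protein Lrrtm1 (-1.05) and the scaffold Dlg1 (-0.74) were lower, while another Dlgap1 probe set stood at -0.33.

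Of 6 genes of glutamate transport and synthesis 2 were higher and 3 lower. The astrocyte transporters Slc1a3 (0.83), which also stands in the astrocyte marker list, and Slc1a2 (0.52) were higher, and the vesicular transporter Slc17a6 (-1.31) and the mitochondrial enzyme Glud1 (-0.42) were lower. Slc1a3 had a low mean level of 6.28, against 5.61 for the brightest nonspecific control, which limits its ratio. Of 3 RNA editing genes, Adarb2 was called (0.38), with another of its probe sets at -0.44. The largest adjusted p among the 20 genes named by size was 0.00426 (Gsg1l, limma), and each had 6 of 6 animals on its side. Aligned on the hybridisation controls, Grid1, Grm4, Cacng3 and Adarb2 turned to -0.01, -0.05, -0.00143 and -0.11. The counts depend on the scaling as well: for the auxiliary subunits they were 9 higher and 0 lower with arrays centred on the medians of kept probe sets, and 1 higher and 11 lower with arrays aligned on the hybridisation controls. None of the 62 listed genes with a kept probe set was called in a genotype comparison, where 0% to 0.0277% of all probe sets were, nor in those of INPUT without CPEB4 KO animal 1.

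The genes whose values over the 18 arrays were most like each receptor were taken by Pearson correlation among 13317 genes, as a description, since arrays of 1 fraction share their normalisation and their place in the data. For Grin2b 1457003_PM_at they were 4930451I11Rik (0.974), Atxn7l1os2 (0.970) and Rgs7bp (0.965), and for Grin2a they were Depdc5 (0.962), Dtna (0.960) and Sstr4 (0.951). Gria1 was most like Prrc2c (0.959), Kmt2c (0.958) and Tenm2 (0.955), Gria2 like Kcna4 (0.924), Fgf14 (0.923) and Etnk1 (0.920), and Gria3 like Ppargc1b (0.973), Anks1b (0.971) and Cox16 (0.968). Correlations were lower for Gria4, with Cracdl (0.870), Acp2 (0.859) and Anapc1 (0.857), and for Grm5, with Myo9a (0.813), Elavl4 (0.810) and Atp8a1 (0.810). Grm3 was most like Dlg2 (0.936), A830010M20Rik (0.935) and Fgf14 (0.922). Without the INPUT array of CPEB4 KO animal 1, 16 of these 24 genes stayed among the 3 most like, the others ranked up to 9, and no correlation moved by more than 0.019.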

How the data were processed

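Expression was deposited as log2 values from RMA (the submitters' processing notes give the name alone), after whole-transcriptome amplification of the RNA, per the labels' protocols. The genome build and the annotation used by the authors are not given in the sources used here. The number of arrays (18, with 3 residual degrees of freedom) limits the precision. Arrays of a group correlated at 0.966 to 0.994 across probe sets, and 0 pairs were identical.

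Probe sets were named through the platform annotation supplied with the data: 28898 carried 1 symbol, 551 several, and 15588 besides 104 controls none here. All 8 measured receptor genes matched RefSeq by Entrez identifier. Differences between fractions were taken within each animal, and limma 3.58.1 (R 4.3.3; eBayes without trend) was run on 21673 probe sets with genotype as the factor, two-sided, with Benjamini-Hochberg adjustment over all of them. SE is limma's, and SD is between animals. The procedure was run on simulated data with 200 changed probe sets. Their changes were larger than any receptor difference given here, so that run does not cover differences of receptor size. The labels number the animals but say nothing of litters or batches, so p-values measure the spread between these animals.

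Named were all receptor probe sets, Cpeb4, the 3 genes most like each receptor and, in each list, at most 2 genes called higher and 2 called lower in ELUTED over WASH, by size, with all animals on 1 side. Members and lists were chosen with earlier results of these data known. Alternatives covered the filter, the scaling, the variance model, the probe sets tested, a replicate block, INPUT in place of WASH, and leaving out each animal. The scaling on medians of kept probe sets was chosen after seeing the data.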

Additional observations from a re-analysis of the deposited data

Results flagged for a closer look

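The INPUT array of CPEB4 KO animal 1 held liver transcripts, a signal outside the receptor comparisons and above every other array, the WT arrays included. Alb (1425260_PM_at) had a log2 value of 12.08 there and 6.27 on average on the other arrays. Apoa1 (1419232_PM_a_at) had 11.0 there and 6.74 on the others, and Serpina1a (1420553_PM_x_at) had 11.28 there and 3.92 on the others. Ttr (1451580_PM_a_at), at 11.4, lay inside the range of the other arrays. The ELUTED and WASH arrays of the same animal had Alb at 6.53 and 6.16 and Apoa1 at 6.78 and 6.77, within the ranges of the other animals (5.86 to 6.86 and 6.52 to 6.96). Serpina1a stood there at 3.972 and 3.890, against 3.860 to 3.970 in the other animals, which the ELUTED array exceeded by a small margin.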

How the results depend on the processing

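Of 2357 receptor values recomputed under the alternatives, 2044 kept direction and side of the threshold, 82 lost a call, 22 gained one, 21 reversed and 188 uncalled ones changed sign; 0 of 1521 in genotype comparisons were called. Of 357 values of the 20 partner genes named by size, 334 kept both, 19 lost a call and 4 reversed. The causes were not tested. For ELUTED over WASH, 7 receptor probe sets were higher and 4 lower. Centring on array medians gave 6 higher and 7 lower, and alignment on hybridisation controls 3 and 8. Quantile normalization gave 7 higher and 1 lower, and a common median and MAD or centring on kept probe sets 9 and 1 each. With 1 probe set per gene 4 were higher and 1 lower, and with INPUT in place of WASH 4 and 5. For ELUTED over INPUT (4 higher, 5 lower), these alternatives gave 2 and 6 (array medians), 0 and 7 (hybridisation controls) and 3 and 3 (quantile and MAD each). They gave 4 and 3 (kept probe sets), and 2 and 2 (1 per gene). For WASH over INPUT (2 higher, 10 lower), they gave 3 and 9 (array medians), 5 and 4 (hybridisation controls) and 1 and 11 (quantile). They gave 0 and 11 (MAD and kept probe sets each), and 0 and 6 (1 per gene). Over all probe sets, higher calls were 35.4% of calls for ELUTED over INPUT as deposited. In the order array medians, hybridisation controls, quantile, MAD, kept probe sets and 1 per gene they were 25.3%, 3.79%, 43.8%, 38.7%, 58.8% and 33.9%. For WASH over INPUT they were 66.5% as deposited, and 77.3%, 94.1%, 61.9%, 65.7%, 35.6% and 69.1% in that order. Of the pairs within genes (1 higher, 3 lower), INPUT in place of WASH left 1 lower, and quantile normalization and a common MAD gave 4 lower each.

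Aligned on hybridisation controls, ELUTED over WASH reversed for Gria1 1448972_PM_at (-0.30), Grid1 (-0.0099), Grm4 (-0.054), Cacng3 (-0.00143) and Adarb2 (-0.11), ELUTED over INPUT for Gria2 1453098_PM_at (-0.021), and WASH over INPUT for Gria4 1421351_PM_at (0.11), Gria2 1421970_PM_a_at (0.029), Grm3 (0.0081) and Grm5 (0.24). ELUTED over WASH reversed under quantile normalization for Gria3 1434728_PM_at (0.017), Gria1 1435239_PM_at (0.11) and Gria4 1435722_PM_at (0.047), and under a common MAD for Gria2 1421970_PM_a_at (0.35), Grm3 (0.28), Gria3 1434728_PM_at (0.036) and Gria4 1435722_PM_at (0.12). Centred on kept probe sets it reversed for Gria2 1421970_PM_a_at (0.24), Grm3 (0.20), Gria3 1434728_PM_at (0.037), Gria1 1435239_PM_at (0.088) and Gria4 1435722_PM_at (0.083), and WASH over INPUT for Gria3 1434728_PM_at (-0.013). With INPUT in place of WASH it reversed for Grin2a (-0.27) and Gria1 1448972_PM_at (-0.090). The median of all probe sets was -0.15 as deposited, -0.27, 0.14, -0.64, -0.06 and -0.11 when centred on array medians, on kept probe sets, aligned, quantile normalized and on a common MAD, and 36.4%, 24.6%, 61.7%, 3.31%, 41.5% and 36.1% of calls were higher.

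Over all probe sets, ELUTED over WASH called 15803, with 9725 at 1 probe set per gene, 25545 among all probe sets and 9697 against INPUT. ELUTED over INPUT called 9697 (5761 and 16019), and WASH over INPUT 13899 (8473 and 22005). Pairs within genes called 5273, with 3253 after leaving out the lowest 50% and 2629 against INPUT. In INPUT, CPEB4 KO over WT called 6, with 2 without a filter, 11 with the lowest 50% left out, 361 aligned on hybridisation controls, 12 with a variance trend and 0 at 1 per gene. CPEB4 GT/+ over WT called 0 (1 aligned), and CPEB4 KO over CPEB4 GT/+ 2, with 1, 5, 365, 4 and 0 under the same changes and 4 with a common MAD or kept-probe-set centring.

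Leaving out 1 animal at a time gave 12803 to 17113 calls for ELUTED over WASH (6 to 7 receptor probe sets higher, 1 to 4 lower), 5897 to 11213 for ELUTED over INPUT (1 to 3, 3 to 5), 11912 to 13377 for WASH over INPUT (1 to 2, 9 to 10) and 3932 to 5874 within genes (1 to 2, 3). In INPUT it gave 0 to 371 for CPEB4 KO over WT (14 without CPEB4 KO animal 1, 371 without animal 2) and 0 to 379 for CPEB4 KO over CPEB4 GT/+ (11 and 379). Same-numbered animals did not deviate together throughout, with correlations of -0.03 (CPEB4 KO and CPEB4 GT/+), -0.09 (CPEB4 KO and WT) and -0.03 (CPEB4 GT/+ and WT) in INPUT and 0.48, -0.29 and -0.33 in the ratio, where CPEB4 KO and CPEB4 GT/+ animals did. With the replicate number as a block, 1 probe set each was called for CPEB4 KO over WT and over CPEB4 GT/+ in INPUT, 0 of them receptors, and the Cpeb4 call was lost (-1.58, adjusted p = 0.116). The low WASH values of Grin2a and Grin2b 1431700_PM_at lie near nonspecific controls, which limits their ratios.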
